A study of Mus musculus with 6 samples.

Results

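Interferon-stimulated genes are the genes that a cell switches on when type I interferon reaches its receptor. The receptor kinases phosphorylate Stat2, which with Irf9 acts at the interferon-stimulated response element in promoters, and Irf7 among the targets amplifies further interferon output. Macrophages keep a low tonic level of these genes at rest and raise them when nucleic acid sensors or Toll-like receptors are engaged. The products act in several ways: sensors of foreign RNA and DNA, enzymes that degrade or modify RNA, proteins that block viral entry and budding, and feedback inhibitors of the receptor.

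The 35 genes described here were taken from a list of symbols (Ifit, Isg, Mx, Oas and Gbp families, their regulators and sensors, and other interferon-induced genes) matched to the gene names of the count table. All 35 had at least 10 counts summed over the 6 libraries, of 54532 genes in the table. Of these, 30 were among the 13156 genes with enough counts for testing. The other 5, Ifit1, Ifit3, Gbp2, Gbp3 and Gbp5, had too few counts and are described by their counts.

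RNA was taken from RAW264.7 cells, an established mouse macrophage-like line transformed by Abelson murine leukemia virus, after 3 days on one of 3 metal scaffolds. The groups were CaP Zn0.8Mn0.1Li, CaP Zn0.8Mn and CaP Zn, with 2 libraries each. All 3 are zinc-based scaffolds with a CaP coating, and the labels name no added cytokine or virus. The question put by the series was how the alloying elements affect macrophage polarization. Cells grown off metal were not analysed here. The labels do not say if paired libraries are different cultures, and p-values therefore reflect only how far these libraries scattered, possibly for technical reasons.

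The libraries held 14944070 to 17709290 counts, so 3 counts corresponded to 0.161 to 0.198 CPM (counts per 1000000, scaled by library size with the trimmed mean of M values, TMM). CaP Zn0.8Mn replicate 1 stood apart: 7.88% of its counts were mitochondrial, against 1.82% to 2.15% in the other 5. The summed level of 12 macrophage markers, more than 50% of it Lyz2, was 15800 and 16420 CPM on CaP Zn0.8Mn0.1Li, 10970 and 17270 CPM on CaP Zn0.8Mn, and 11500 and 14730 CPM on CaP Zn. Without Lyz2 it was 2575 and 2608 CPM on CaP Zn0.8Mn0.1Li, 5117 and 2742 CPM on CaP Zn0.8Mn, and 2325 and 2470 CPM on CaP Zn, so CaP Zn0.8Mn replicate 1 was lowest with Lyz2 and highest without it. Of the 11 tested markers, 6 were above and 5 below the mean of the other 5 libraries there, with a median log2 difference of 0.51. Epithelial markers were at 0 in all libraries, and T, B and NK cell markers had at most 4 counts each. Siglech and Ly6d, which mark the plasmacytoid dendritic cell, the main interferon-producing cell type, were at 0 in every library, although Tcf4 and Cox6a2 of the same list were counted. These are bulk libraries, in which fewer cells with a transcript and less RNA per cell cannot be told apart.

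The response element sits in the promoters of many of these genes, so their promoter letters are given before the values. RefSeq (GRCm38.p6) gave 250-base windows upstream of the transcript start for 26 of the 35 genes. The letters GAAANNGAAA, on either strand and with overlapping matches counted, occurred in 14 of these 26 genes (53.8%), against 3.46% of 27025 genes with a window. The letters TTCNNNGAA, the core of the gamma-activated site, occurred in 6 of the 26 (23.1%), against 8.13% of genes. A match is a stretch of letters and not a measured binding site. Capitals mark 1 GAAANNGAAA match, or its reverse complement TTTCNNTTTC, in each of the stretches below, read 5′ to 3′ on the strand of the gene, and further matches in the Isg15, Bst2, Oas1a and Ifit1 stretches are left in lower case.
Isg15: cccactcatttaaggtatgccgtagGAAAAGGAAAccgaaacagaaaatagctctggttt
Bst2: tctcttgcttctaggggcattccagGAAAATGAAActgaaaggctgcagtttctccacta
Oas3: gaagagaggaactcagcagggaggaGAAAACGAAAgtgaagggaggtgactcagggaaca
Oas1a: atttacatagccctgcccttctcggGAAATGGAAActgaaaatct
Slfn5: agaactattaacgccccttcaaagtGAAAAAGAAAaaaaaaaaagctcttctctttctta
Stat2: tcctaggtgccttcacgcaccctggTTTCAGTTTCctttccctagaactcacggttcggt
Ifit1: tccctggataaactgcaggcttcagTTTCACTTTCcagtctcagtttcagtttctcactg
Gbp7: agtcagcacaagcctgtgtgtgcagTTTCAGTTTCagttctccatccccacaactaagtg
Isg15 lies at chr4:156200862-156200921 and Oas3 at chr5:120777700-120777759, both on the minus strand. Bst2 lies at chr8:71537568-71537627 and Oas1a at chr5:120907526-120907570, again on the minus strand. Stat2 (chr10:128270251-128270310), Slfn5 (chr11:82951922-82951981), Ifit1 (chr19:34640760-34640819) and Gbp7 (chr3:142530258-142530317) are on the plus strand. They are shown to span the levels and library patterns described below: Bst2 had the highest level, Isg15 and Slfn5 lay on opposite sides of the other libraries in CaP Zn0.8Mn replicate 1, Gbp7 had its highest values on CaP Zn0.8Mn0.1Li, and Ifit1 was near the floor of detection. No match was found for Ifit2, Irf7, Ddx58 or Ifi44 in these windows. The Slfn5 stretch lies inside the gene as deposited, which starts at chr11:82951349, and upstream of a later RefSeq transcript start. The median log2 ratio of CaP Zn replicate 1 over replicate 2, described below, was 0.19 in the 9 tested members with the GAAANNGAAA letters and 0.34 in the 12 tested members whose window lacked them.

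Levels per transcript length, read as FPKM (fragments per kilobase and per 1000000) from the deposited table, ran from a median of 0.0273 FPKM for Gbp5 to 518.6 FPKM for Bst2. The plot of FPKM by gene and library shows this ordering. Bst2, which encodes tetherin, a membrane protein that holds budding virus on the cell surface, was highest in each of the 6 libraries. Irf7, the master transcription factor of the interferon response, followed at 85.0 FPKM, and then the oligoadenylate synthetases Oas1a at 39.1 FPKM and Oas3 at 28.8 FPKM, which make the activator of RNase L. Usp18 (21.5 FPKM), the protease that removes Isg15 from proteins and damps the receptor, and Isg15 (17.67 FPKM), its ubiquitin-like substrate, came next.

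**Figure D1:**
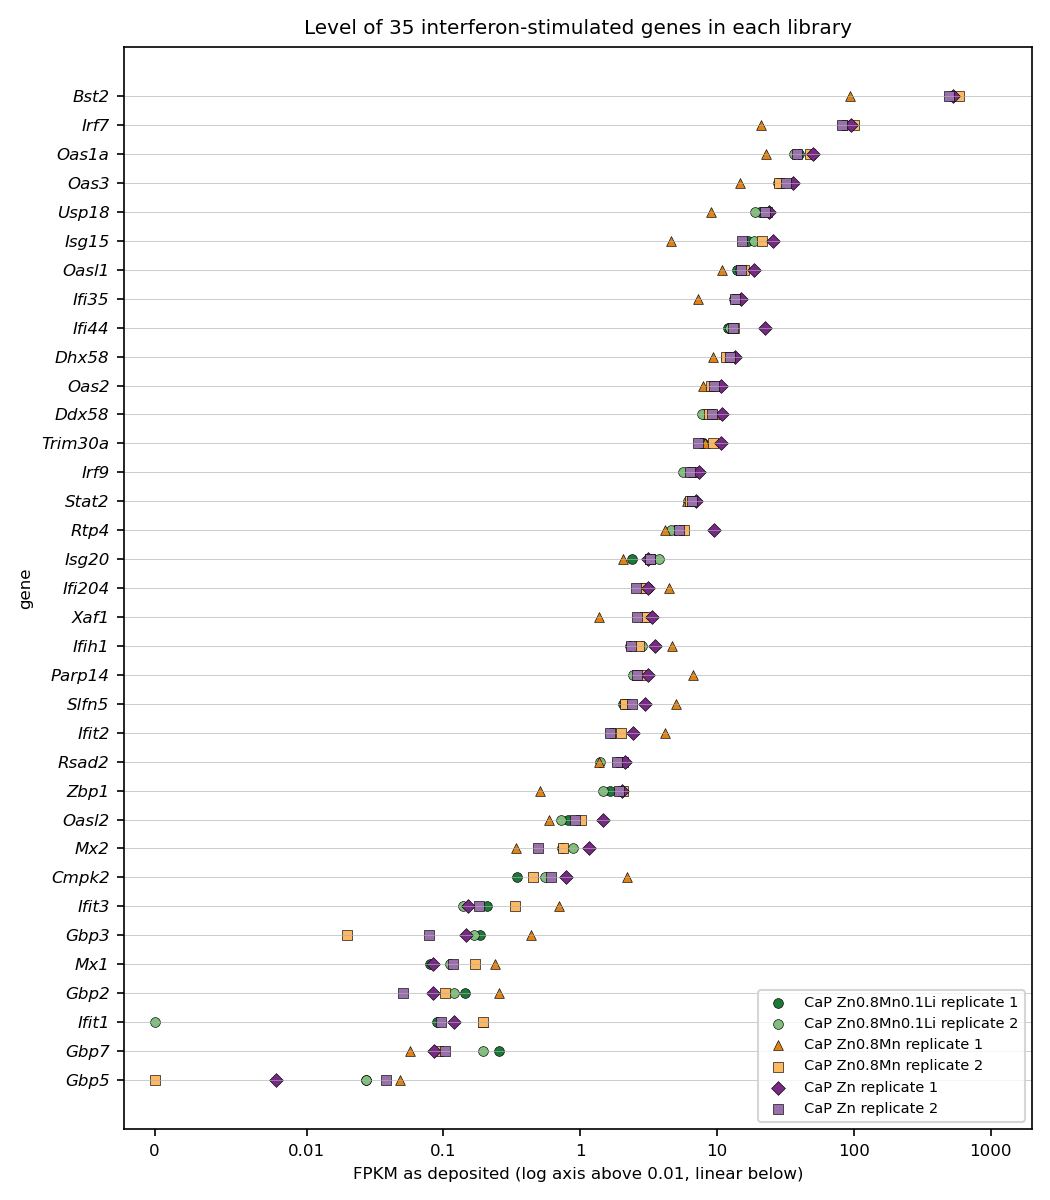
FPKM of each of the 35 genes (vertical, ordered by median) in each of the 6 libraries (horizontal, log axis above 0.01), with colour and shape for library. Bst2 and Irf7 lie at the top, the Gbp genes, Ifit1, Ifit3 and Mx1 lie below 1 FPKM, and the triangles of CaP Zn0.8Mn replicate 1 leave the other points in both directions.

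At the other end stood the Gbp genes, Ifit1, Ifit3 and Mx1, which are induced by interferon in activated macrophages. Ifit1, which binds viral RNA ends, had 4 and 0 counts on CaP Zn0.8Mn0.1Li, 8 and 8 counts on CaP Zn0.8Mn, and 6 and 4 counts on CaP Zn. Its median of 0.108 FPKM and that of Ifit3, 0.194 FPKM, were below the 1.87 FPKM of Ifit2, their neighbour on chromosome 19. The guanylate-binding proteins coat vacuoles that hold pathogens. Gbp2 had 6 and 5 counts on CaP Zn0.8Mn0.1Li, 10 and 4 counts on CaP Zn0.8Mn, and 4 and 2 counts on CaP Zn. Gbp3 had 10 and 9, 22 and 1, and 9 and 4 counts in the same order of groups. Gbp5 had 3 and 3, 5 and 0, and 1 and 4 counts, and Ifit3 had 6 and 4, 19 and 9, and 5 and 5. These 4 genes and Ifit1 had 0 to 22 counts in any library, too few for the main test. In the edgeR fit without a filter, 0 of 35 members were called in any comparison, beside at most 1 of 23464 genes. What difference could be detected at this depth was not tested. Mx1, a GTPase that blocks influenza virus and is defective in most laboratory mouse strains, stayed at 5 to 14 counts.

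Reads of some members could also belong to near-identical or overlapping genes. Of the 50-base words of Oas1a, 57.6% occur in Oas1g and 51.2% of Ifit3 in Ifit3b. Oas1a plus Oas1g read 121.1 and 111.9 CPM on CaP Zn0.8Mn0.1Li, 78.8 and 142.7 CPM on CaP Zn0.8Mn, and 154.8 and 123.7 CPM on CaP Zn, highest and lowest in the same libraries as Oas1a alone. For Ifi204, a DNA sensor of the Ifi200 family, 20% is shared, mainly with Ifi211. For Rtp4, 11.6% of words also occur in Gm45338. Slfn5 overlaps the antisense gene Slfn5os (7.38% of words, within 11.1% shared with any gene) and Ifi35 the antisense gene Gm11626 (10.4%), and for the counting strand a setting was not given in the sources used here.

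Between the 2 CaP Zn libraries most members differed one way, so each library is given apart. CaP Zn replicate 1 read higher than replicate 2 in 27 of the 30 tested members (49.9% of all tested genes did so). The median log2 ratio over the members was 0.26, with a range of -0.44 to 1.23, against a median of -0.00048 over all tested genes. Rtp4, Ifi44, Oasl2, Isg15 and Mx2 were more than 1.5-fold higher in replicate 1, or 5 of 30 members beside 5.77% of all tested genes. By role, all 5 tested oligoadenylate synthetase family genes, all 5 sensors (Ddx58, Ifih1, Dhx58, Zbp1 and Ifi204) and all 3 transcription factors (Irf7, Irf9 and Stat2) were among the 27. Scaled by library totals alone, 8 of 30 members passed that fold (1002 of 13156 tested genes did). Under that scaling 28 members were higher in replicate 1, but so were 66% of all tested genes, whose median moved to 0.092. CaP Zn replicate 1 was the highest of all 6 libraries in 18 of 30 members (9.06% of all tested genes), and the highest of 5 in 24 of 30 without CaP Zn0.8Mn replicate 1 (25.5%). With 1 library against 1, none of these counts has a test.

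**Figure D2:**
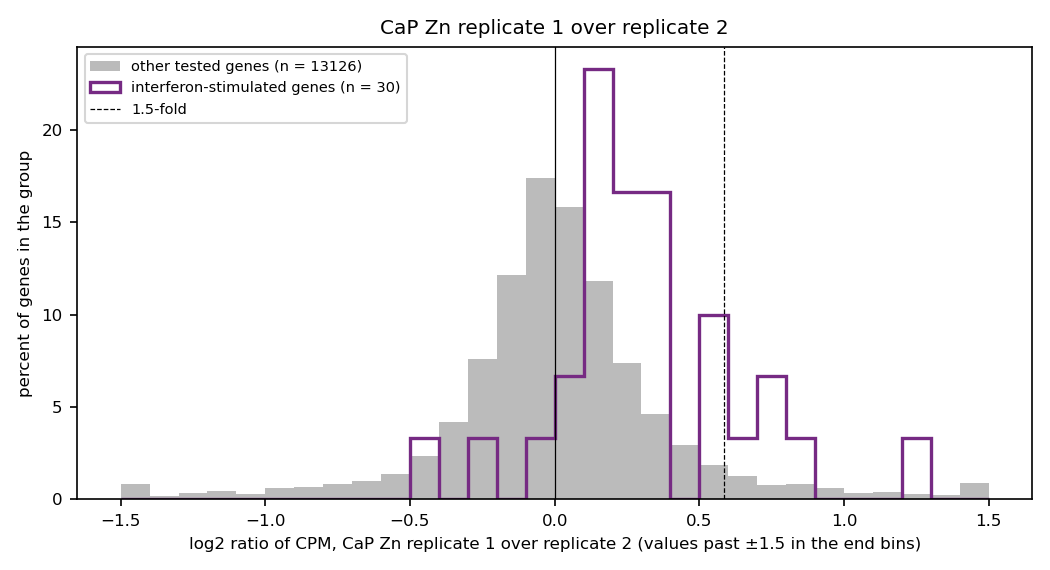
Log2 ratio of CPM in CaP Zn replicate 1 over replicate 2 (horizontal) as the percent of genes in each bin (vertical), for the 30 tested interferon-stimulated genes (outline) and all other tested genes (filled). The filled bars centre on 0, while 27 of the 30 members lie to the right of 0 and 5 lie past the dashed line at 1.5-fold.

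Rtp4, a Golgi chaperone that also blocks flaviviruses, read 10.5 and 9.83 CPM on CaP Zn0.8Mn0.1Li, 9.11 and 12.2 CPM on CaP Zn0.8Mn, and 20.5 and 11.3 CPM on CaP Zn. CaP Zn replicate 1 stood alone above the other 5 libraries, which overlapped. Its difference from CaP Zn0.8Mn0.1Li replicates 1 and 2, CaP Zn0.8Mn replicate 2 and CaP Zn replicate 2 ranked 8 among 9765 genes of at least 5 CPM. Ifi44, a GTP-binding protein of the cytoplasm, read 73.6 and 77.4 CPM on CaP Zn0.8Mn0.1Li, 82.0 and 81.4 CPM on CaP Zn0.8Mn, and 138.9 and 80.7 CPM on CaP Zn. Here the other 5 libraries, CaP Zn0.8Mn replicate 1 among them, lay between 73.6 and 82.0 CPM, and the rank was 15. Its mean was 75.5 ± 2.69 CPM on CaP Zn0.8Mn0.1Li, 81.7 ± 0.398 CPM on CaP Zn0.8Mn and 109.8 ± 41.1 CPM on CaP Zn (SD, n = 2 each), so the spread of CaP Zn exceeded the differences between the means. Oasl2, a ubiquitin-domain relative of the oligoadenylate synthetases, read 5.19 and 4.64, 3.83 and 6.46, and 9.40 and 5.81 CPM in the same order of groups, with rank 21. Isg15 read 12.7 and 14.2 CPM on CaP Zn0.8Mn0.1Li, 3.56 and 16.0 CPM on CaP Zn0.8Mn, and 19.7 and 11.5 CPM on CaP Zn, so it was highest in CaP Zn replicate 1 and lowest in CaP Zn0.8Mn replicate 1. The RNA sensor Ifih1 (rank 141), Ifit2 (173), Slfn5 (180) and Trim30a (239) came next.

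Members that hardly set the 2 CaP Zn libraries apart included some of the most abundant. Bst2 read 479 and 464 CPM on CaP Zn0.8Mn0.1Li, 86.0 and 527 CPM on CaP Zn0.8Mn, and 485 and 448 CPM on CaP Zn. The ratio of CaP Zn replicate 1 over replicate 2 was 1.08-fold for Bst2, 1.07-fold for Usp18 and 1.07-fold for Stat2. The 3 members that read lower in replicate 1 were Isg20, an RNA exonuclease (5.91 against 6.01 CPM in replicate 2), Mx1 (0.322 against 0.447 CPM) and Gbp7 (0.483 against 0.575 CPM). The summed level of the 35 genes was 1644 and 1648 CPM on CaP Zn0.8Mn0.1Li, 932.2 and 1821 CPM on CaP Zn0.8Mn, and 1968 and 1657 CPM on CaP Zn. Without Bst2, Irf7 and Oas3 the sum was 654.0 and 646.6 CPM on CaP Zn0.8Mn0.1Li, 658.6 and 712.3 CPM on CaP Zn0.8Mn, and 867.5 and 673.8 CPM on CaP Zn, so CaP Zn replicate 1 was highest in both sums, while CaP Zn0.8Mn replicate 1 was lowest in the first sum and lay within the range of the other libraries in the second.

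**Figure D3:**
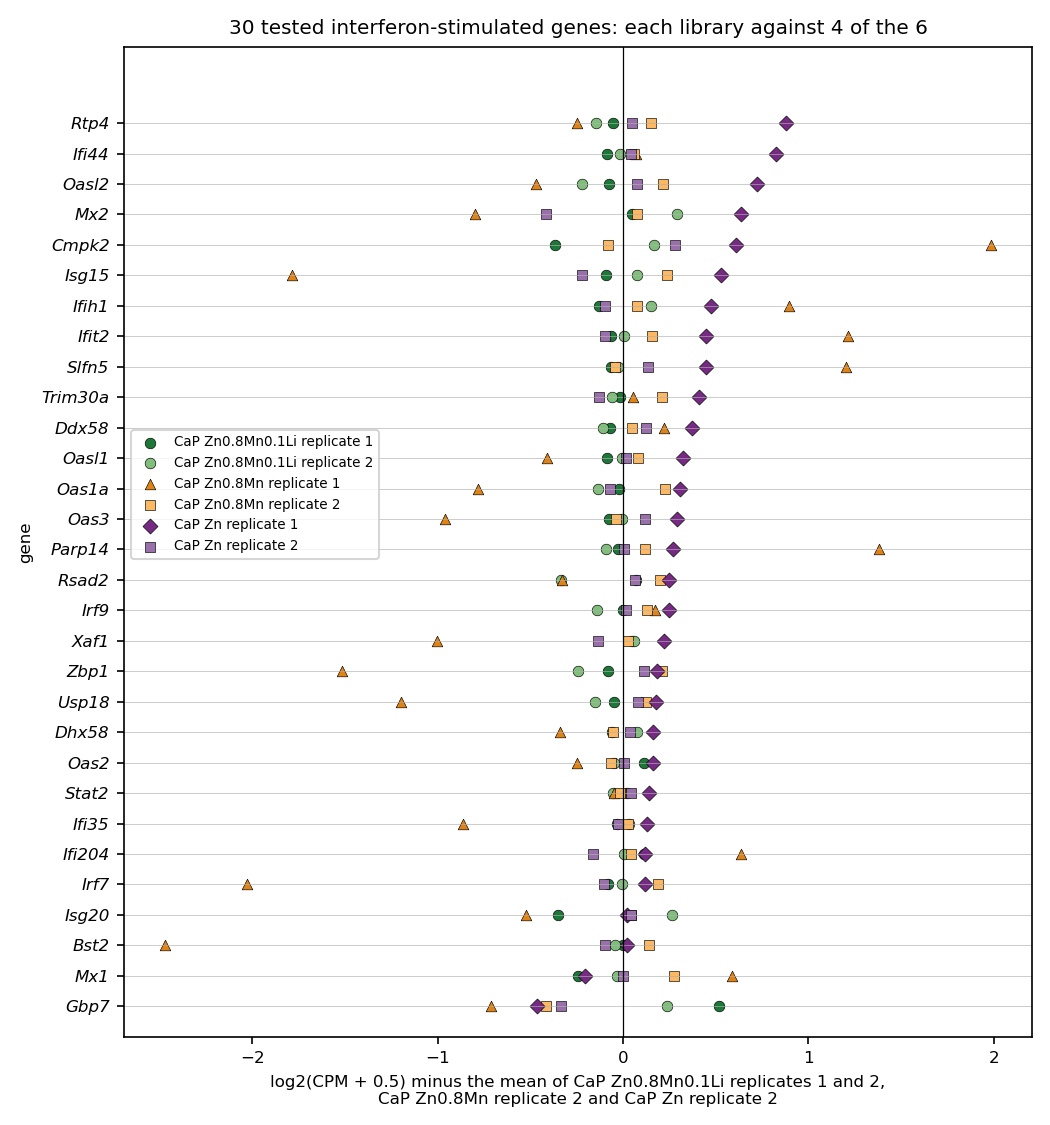
Each of the 30 tested members (vertical) with its log2(CPM + 0.5) in each library relative to the mean of 4 libraries that leave out the replicates 1 of CaP Zn0.8Mn and CaP Zn (horizontal). The diamonds of CaP Zn replicate 1 lie to the right of 0 in 28 of 30 members, and the triangles of CaP Zn0.8Mn replicate 1 spread from Bst2 on the left to Cmpk2 on the right.

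CaP Zn0.8Mn replicate 1 departed from the other 5 libraries in both directions, with a median difference of -0.40 on the log2 scale over the members. More than 2-fold lower there than the mean of the other 5 were 7 of 30 members (14.6% of all tested genes): Bst2 (5.55-fold), Irf7 (4.14-fold), Isg15 (3.71-fold), Zbp1 (2.94-fold), Usp18 (2.36-fold), Xaf1 (2.07-fold) and Oas3 (2.03-fold). More than 2-fold higher were 4 of 30 (13.3% of all tested genes): Cmpk2 (3.64-fold), Parp14 (2.51-fold), Ifit2 (2.18-fold) and Slfn5 (2.17-fold). The first share is 23.3% of members and the second 13.3%. Irf7 read 315 and 331 CPM on CaP Zn0.8Mn0.1Li, 81.2 and 379 CPM on CaP Zn0.8Mn, and 361 and 309.8 CPM on CaP Zn. Parp14, an ADP-ribosyltransferase, read 23.8 and 22.7 CPM on CaP Zn0.8Mn0.1Li, 63.9 and 26.3 CPM on CaP Zn0.8Mn, and 29.3 and 24.3 CPM on CaP Zn. The 2 CaP Zn0.8Mn libraries thus lay further apart in both genes than any other pair within a group.

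Gene length moved with this difference. The 9 members higher in CaP Zn0.8Mn replicate 1 had a median length of 5386 bases (3561 to 9306), and the 21 lower ones 3614 bases (756 to 7069). Across the 30 members, Pearson's r between log length and the difference was 0.579 and Spearman's rho 0.511, against 0.333 and 0.370 over all 13156 tested genes, which share the same library. Genes are not independent replicates, so no p is given. For the ratio of CaP Zn replicate 1 over replicate 2 the members' r was -0.0428 and rho 0.115. The part of gene length, of mitochondrial content or of depth in these differences was not tested.

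**Figure D4:**
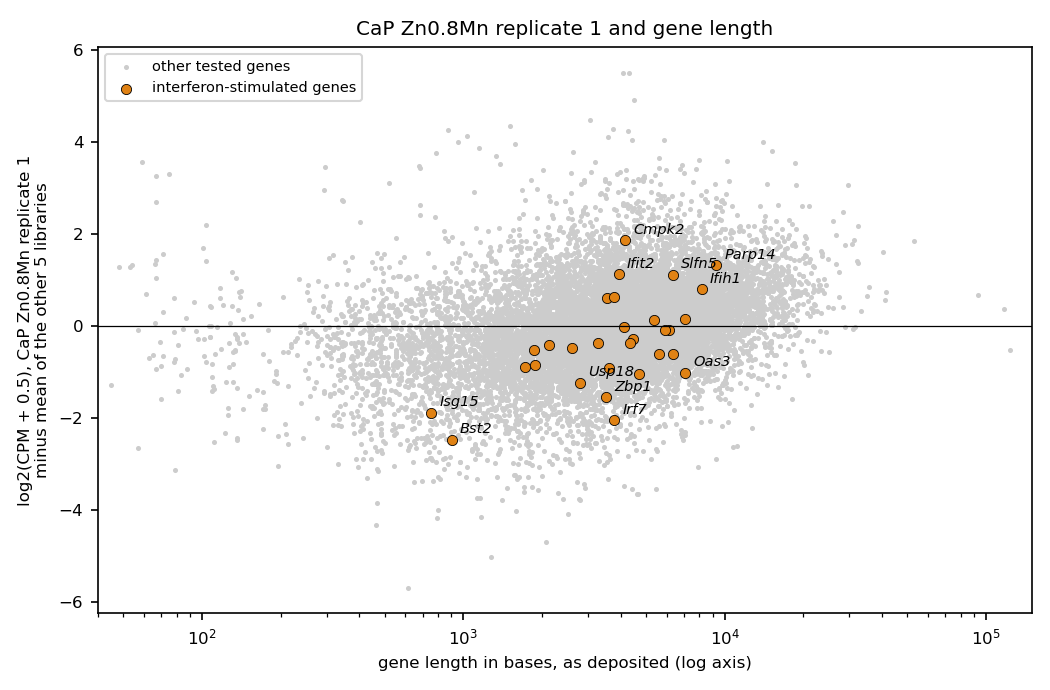
Gene length as deposited (horizontal, log axis) against log2(CPM + 0.5) in CaP Zn0.8Mn replicate 1 minus the mean of the other 5 libraries (vertical), for the 30 members (coloured) and all other tested genes (grey). Isg15 and Bst2, the shortest 2 members, lie far below 0, and Parp14, the longest, lies above it.

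The first comparison set manganese and lithium together, CaP Zn0.8Mn0.1Li, beside plain CaP Zn. With edgeR's quasi-likelihood test over 13156 genes and Benjamini-Hochberg adjustment at 0.05, 0 of 30 members were called (0.0% of all tested genes), with an adjusted p of 1.00 for each, and an unadjusted p under 0.05 was reached by 29 genes, 1 of them a member. Without CaP Zn0.8Mn replicate 1, whose spread enters the shared estimate, 0 of 30 members were called again (0.0%). In that fit edgeR gave an unadjusted p under 0.05 for 660 of 13156 genes. Of these, 7 were members, with Gbp7 alone higher on CaP Zn0.8Mn0.1Li, and the smallest adjusted p of a member by edgeR was 0.596. The log2 fold change was below 0 in 27 of 30 members, with a median of -0.21, and 50% of all tested genes were below 0. Both CaP Zn0.8Mn0.1Li libraries lay below both CaP Zn libraries in 13 of 30 members (16.8% of all tested genes), and above both in 1, Gbp7 (16.7%). These counts moved with CaP Zn replicate 1: without it, 18 of 30 members were below 0 and the median was -0.059. Against CaP Zn replicate 2 alone both CaP Zn0.8Mn0.1Li libraries were lower in 14 of 30 members (33.3% of all tested genes), and against replicate 1 alone in 27 of 30 (37.1%).

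Among the members averaging 5 CPM or more, the largest fold changes were those of the genes highest in CaP Zn replicate 1: Rtp4 (log2 fold change -0.65, SE 0.36), Oasl2 (-0.63, SE 0.41) and Ifi44 (-0.54, SE 0.28). Without CaP Zn replicate 1 they were -0.16, -0.24 and -0.097. Slfn5, a nuclear Schlafen protein, had -0.36 (SE 0.43), Ddx58 had -0.34 (SE 0.18) and Zbp1 had -0.33 (SE 0.62). Ddx58 encodes RIG-I, the sensor of short viral RNA ends, and its 2 libraries on CaP Zn0.8Mn0.1Li (56.6 and 55.2 CPM) lay below every other library, at 69.3 and 61.4 CPM on CaP Zn0.8Mn and 77.0 and 64.8 CPM on CaP Zn. Its adjusted p was 1.00 with 6 libraries and 0.596 without CaP Zn0.8Mn replicate 1 (edgeR's quasi-likelihood test).

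Gbp7, the member with both lithium libraries above the rest, had counts of 24 and 18 for CaP Zn0.8Mn0.1Li, 5 and 8 for CaP Zn0.8Mn, and 9 and 9 for CaP Zn. Its log2 fold change against CaP Zn was 1.26 (SE 0.48), with an unadjusted p of 0.0405 and an adjusted p of 1.00 by edgeR. Of its 50-base words, 12.7% also occur in other genes. Bst2 (0.014, SE 0.76), Xaf1 (-0.00074, SE 0.40) and Irf7 (-0.053, SE 0.66), the transcription factor, had fold changes close to 0 with wide errors.

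**Figure D5:**
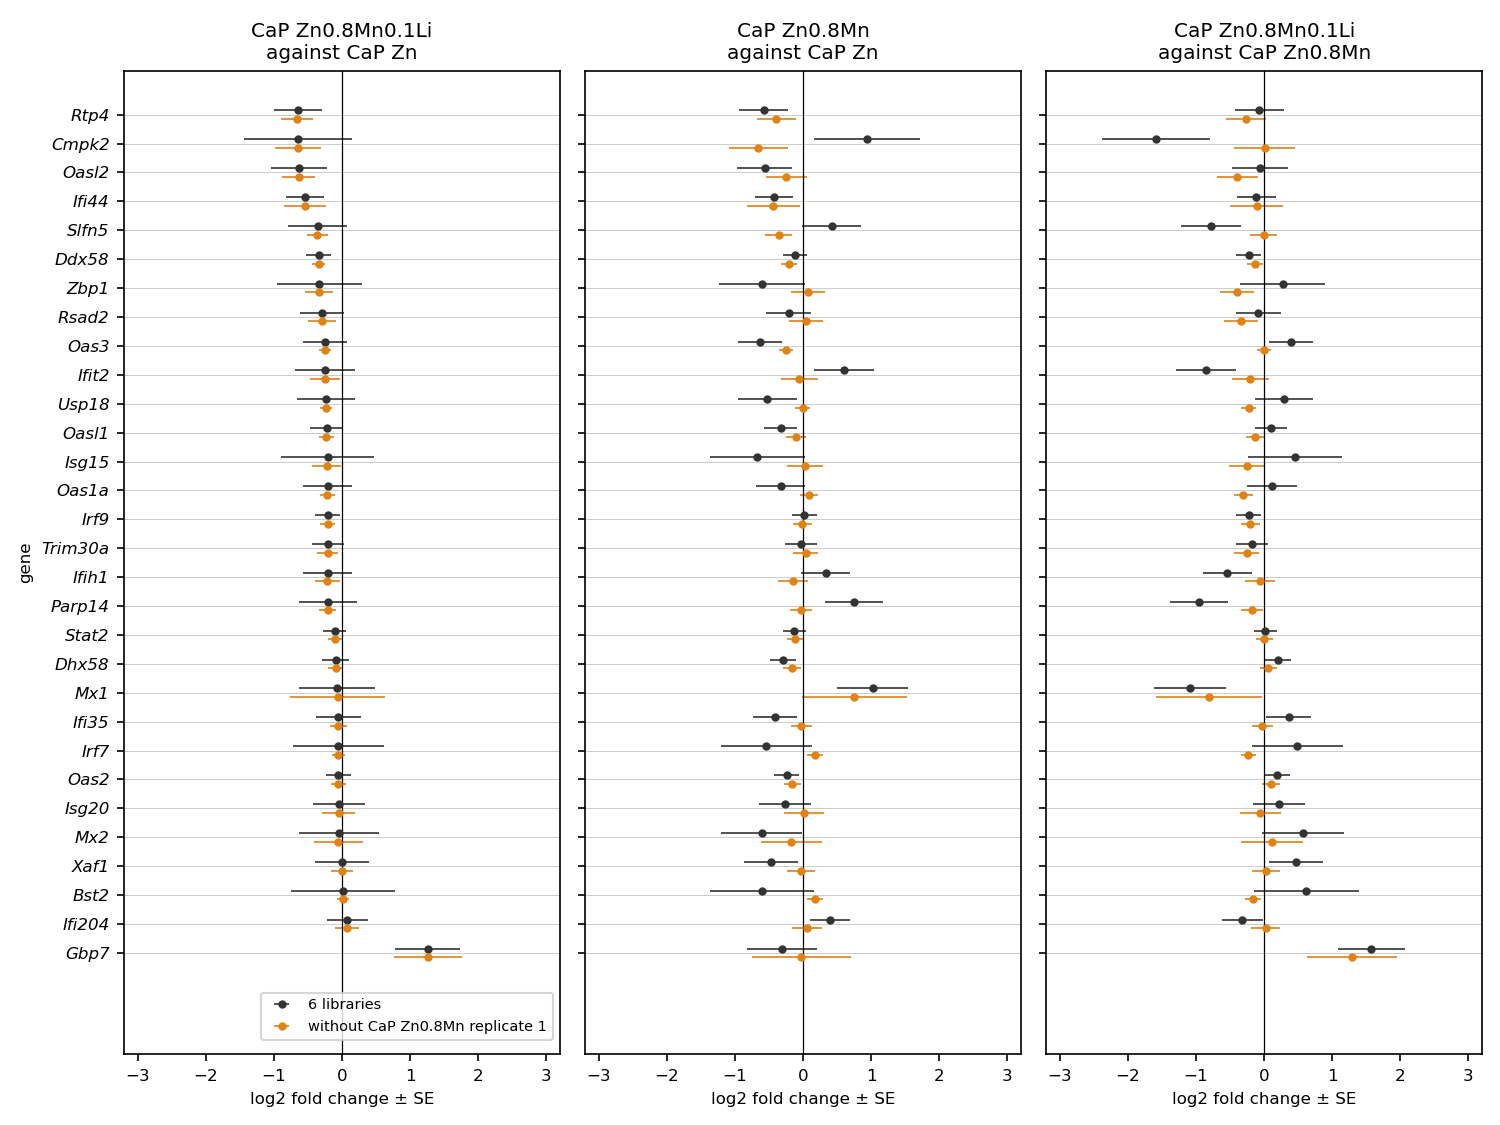
Log2 fold change ± SE (horizontal) of the 30 tested members (vertical) in 3 comparisons, from the fit to all 6 libraries and from the fit without CaP Zn0.8Mn replicate 1. In the left panel 27 of 30 points lie below 0, and in the other panels leaving out that library moves points such as Cmpk2, Parp14, Bst2 and Irf7 to near 0 or across it.

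The comparison of CaP Zn0.8Mn with CaP Zn addressed manganese alone. By edgeR's quasi-likelihood test, 0 of 30 members were called (0.0%), with adjusted p of 0.773 to 0.976, while 207 genes and 0 members reached an unadjusted p under 0.05. The log2 fold change was below 0 in 22 of 30 members and the median was -0.30, against 0.0048 over all tested genes. Members averaging 5 CPM or more had their largest values in Parp14 (0.75, SE 0.43), Isg15 (-0.67, SE 0.69), Oas3 (-0.64, SE 0.32), Bst2 (-0.61, SE 0.77), Ifit2 (0.61, SE 0.44) and Zbp1 (-0.60, SE 0.63). Without CaP Zn0.8Mn replicate 1 the value of Oas3 was -0.25, with an adjusted p of 0.967 by edgeR's quasi-likelihood test, and the other 5 turned in sign. Oas3 read 196 and 207 CPM on CaP Zn0.8Mn0.1Li, 106 and 202 CPM on CaP Zn0.8Mn, and 254 and 225 CPM on CaP Zn, so both manganese alloys were below both CaP Zn libraries. Zbp1, the sensor of Z-form nucleic acid that triggers necroptosis, read 5.85 and 5.19 CPM on CaP Zn0.8Mn0.1Li, 1.85 and 7.30 CPM on CaP Zn0.8Mn, and 7.14 and 6.77 CPM on CaP Zn. Below 5 CPM, log2 fold changes above that of Parp14 were those of Mx1 (1.02, SE 0.53) and Cmpk2 (0.94, SE 0.77). Without CaP Zn0.8Mn replicate 1 they were 0.75 for Mx1 and -0.66 for Cmpk2.

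The 2 CaP Zn0.8Mn libraries were also left out in turn. Without replicate 1, edgeR called 2 of 13156 genes (0.0152%) and 0 of 30 members, 20 of 30 members were below 0, and the median was -0.031. Without replicate 2, which leaves replicate 1 to stand for the alloy and assumes that it varies like the other groups, edgeR called 7808 genes (59.3%) and 21 of 30 members, 6 higher and 15 lower. The members' share is to be read beside 59.3% of all tested genes. With the replicates 1 of both CaP Zn0.8Mn and CaP Zn left out, 8 of 30 members were below 0, the median was 0.11, and edgeR called 43 genes and 0 members.

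The last pair, CaP Zn0.8Mn0.1Li beside CaP Zn0.8Mn, addressed what lithium adds to the manganese alloy. By edgeR's quasi-likelihood test, 0 of 30 members were called (0.0%), with adjusted p of 0.680 to 0.953, and 14 of 30 had a log2 fold change below 0 around a median of 0.060. Members averaging 5 CPM or more were led by Parp14 (-0.96, SE 0.43), Ifit2 (-0.85, SE 0.44), Slfn5 (-0.78, SE 0.44), Bst2 (0.62, SE 0.77), Ifih1 (-0.54, SE 0.36) and Irf7 (0.49, SE 0.67). Without CaP Zn0.8Mn replicate 1 these values were -0.18 for Parp14, -0.20 for Ifit2, -0.0047 for Slfn5, -0.16 for Bst2, -0.063 for Ifih1 and -0.23 for Irf7, so Bst2 and Irf7 turned in sign. Below 5 CPM, larger values were those of Cmpk2 (-1.58, SE 0.79), Gbp7 (1.57, SE 0.49) and Mx1 (-1.09, SE 0.53), and Gbp7 had an unadjusted p of 0.0204 and an adjusted p of 0.680 by edgeR. Ifit2 read 6.63 and 6.96 CPM on CaP Zn0.8Mn0.1Li, 16.8 and 7.81 CPM on CaP Zn0.8Mn, and 9.67 and 6.45 CPM on CaP Zn. Slfn5 read 13.2 and 13.5 CPM on CaP Zn0.8Mn0.1Li, 32.4 and 13.4 CPM on CaP Zn0.8Mn, and 19.0 and 15.2 CPM on CaP Zn. Ifih1, which encodes MDA5, the sensor of long double-stranded RNA, read 18.9 and 23.1 CPM on CaP Zn0.8Mn0.1Li, 39.1 and 21.9 CPM on CaP Zn0.8Mn, and 29.1 and 19.4 CPM on CaP Zn. In Slfn5 and Ifih1 CaP Zn0.8Mn replicate 2 lay between the CaP Zn0.8Mn0.1Li libraries. Without CaP Zn0.8Mn replicate 1, 22 of 30 members were below 0, the median was -0.13, and edgeR called 2 genes (0.0152%) and 0 of 30 members. Without replicate 2 it called 8096 genes (61.5%) and 19 of 30 members, 12 higher and 7 lower. An F test over the 3 alloys called 0 of 30 members (0.0%) in edgeR, with 139 genes and 1 member at an unadjusted p under 0.05.

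The 3 comparisons share libraries, so their member values are not independent of each other. In some members the 6 libraries lay close together, and 4 of these follow. Stat2, a signal transducer of the receptor that works with Irf9, read 38.5 and 36.5 CPM on CaP Zn0.8Mn0.1Li, 36.6 and 37.5 CPM on CaP Zn0.8Mn, and 41.8 and 39.1 CPM on CaP Zn. Irf9, its DNA-binding partner, read 33.8 and 30.7, 38.3 and 37.1, and 40.3 and 34.2 CPM in the same order of groups. As in Ddx58, both CaP Zn0.8Mn0.1Li libraries lay below every other library in Irf9. Oas2 read 46.0 and 41.1, 35.8 and 40.5, and 47.6 and 42.6 CPM, and Dhx58, which encodes LGP2, a regulator of RIG-I and MDA5, read 38.0 and 41.8, 31.2 and 38.2, and 44.5 and 40.8 CPM. In these 4 genes CaP Zn0.8Mn replicate 1 was within 1.30-fold of the mean of the other 5.

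The other members fell between these patterns. Oas1a read 75.3 and 69.6 CPM on CaP Zn0.8Mn0.1Li, 44.2 and 89.5 CPM on CaP Zn0.8Mn, and 94.8 and 72.9 CPM on CaP Zn. The groups stand in that order below. Oasl1, which represses Irf7 translation in mouse, read 36.7 and 38.8, 29.2 and 41.2, and 49.0 and 39.4 CPM. Both genes were highest in CaP Zn replicate 1 and lowest in CaP Zn0.8Mn replicate 1. Usp18 read 57.6 and 53.6, 25.7 and 65.0, and 67.6 and 63.0 CPM. Xaf1, a pro-apoptotic factor, read 14.1 and 14.2, 6.54 and 13.9, and 15.9 and 12.3 CPM. Ifi35 read 23.2 and 24.2, 12.8 and 24.1, and 25.9 and 23.3 CPM. These 3 genes had CaP Zn0.8Mn replicate 1 as their lowest library and CaP Zn replicate 1 as their highest. Trim30a, a mouse ubiquitin ligase that restrains Toll-like receptor signalling, read 32.6 and 31.6, 34.3 and 38.3, and 44.1 and 30.2 CPM, so its 2 CaP Zn libraries were its highest and its lowest. Ifi204 read 11.2 and 10.3, 16.2 and 10.6, and 11.2 and 9.14 CPM, highest in CaP Zn0.8Mn replicate 1. Rsad2, the antiviral enzyme viperin, read 8.14 and 6.05, 6.07 and 8.97, and 9.29 and 8.11 CPM, so all 3 alloys overlapped. Cmpk2, the mitochondrial kinase next to Rsad2 on chromosome 12, read 1.45 and 2.32, 9.44 and 1.87, and 3.33 and 2.56 CPM, highest in CaP Zn0.8Mn replicate 1. Mx2 read 2.65 and 3.24, 1.25 and 2.71, and 4.24 and 1.79 CPM, again with its highest value in CaP Zn replicate 1. Isg20 read 4.46 and 7.08, 3.89 and 6.0, and 5.91 and 6.01 CPM, and the alloys overlapped.

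Other genes of the pathway were set beside the members from lists, and by edgeR 0 of 121 tested genes were called in any comparison (adjusted p 1.00 in the first comparison, 0.773 to 0.987 in the second and 0.680 to 0.993 in the third). Of 21 interferon ligand genes, 18 were at 0 in all 6 libraries. Ifnb1, the interferon that macrophages release first, had 2 counts in CaP Zn replicate 1 and 0 in the other 5, which allows at most 0.198 CPM in those libraries. Ifnar1 and Ifnar2, the receptor chains, and Jak1 and Tyk2, its kinases, ranged from 93.1 to 124, 56.6 to 68.4, 158.6 to 208.2 and 82.7 to 103.0 CPM over the libraries. In CaP Zn replicate 1 over replicate 2, 4 of 8 tested receptor and kinase genes, 2 of 7 transcription factor genes and 5 of 11 negative regulators were higher. The log2 ratio of CaP Zn replicate 1 over replicate 2 was 0.25 for Irf3, -0.044 for Irf1 and -0.057 for Irf8, which are transcription factors of the pathway. It was -0.15 for Mb21d1, the DNA sensor cGAS, 0.45 for its adaptor Tmem173 (STING), -0.011 for Mavs, the adaptor of RIG-I and MDA5, 0.20 for Tlr3, and 0.13 for Eif2ak2, the kinase PKR. Socs1, a feedback inhibitor of the receptor kinases, read 1.87 and 1.41 CPM on CaP Zn0.8Mn0.1Li, 0.066 and 1.36 CPM on CaP Zn0.8Mn, and 0.806 and 0.383 CPM on CaP Zn, lowest in CaP Zn0.8Mn replicate 1.

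Further interferon-stimulated genes outside the 35 were counted in the same way. Of 70 tested, 53 were higher in CaP Zn replicate 1 than in replicate 2 (49.9% of all tested genes were) and 17 lower. More than 1.5-fold higher were 7 (5.77% of all tested genes), and the median log2 ratio was 0.16. Among the 17, Ifi27 read 114.8 CPM in CaP Zn replicate 1 and 161.0 CPM in replicate 2. Ifi44l, the neighbouring paralogue of Ifi44, read 13.2 and 18.1 CPM on CaP Zn0.8Mn0.1Li, 10.4 and 18.1 CPM on CaP Zn0.8Mn, and 27.8 and 16.0 CPM on CaP Zn, highest in CaP Zn replicate 1 and lowest in CaP Zn0.8Mn replicate 1. Among 9 tested interferon-gamma and class II genes, 7 were higher in replicate 1 (49.9% of all tested genes were). The 2 lower ones were of class II, Cd74 (733.6 against 975.5 CPM in replicate 2) and H2-DMa (12.3 against 13.5 CPM). Of the sensors and adaptors, 10 of 16 tested were higher in CaP Zn replicate 1. Tlr7, the receptor for single-stranded RNA, read 3.26 and 4.15 CPM on CaP Zn0.8Mn0.1Li, 278.4 and 9.62 CPM on CaP Zn0.8Mn, and 8.32 and 4.98 CPM on CaP Zn. CaP Zn0.8Mn replicate 1 stood far above the other 5 libraries in that gene. Among genes outside the 35 averaging 5 CPM or more, CaP Zn replicate 1 differed from the other 4 libraries (CaP Zn0.8Mn replicate 1 aside) most in the pseudogene Gm10241 and in Srp54b on the high side and in Sumo2, Hspa1b and Saa3 on the low side. Sumo2, a ubiquitin-like modifier, read 117 and 52.5 CPM on CaP Zn0.8Mn0.1Li, 7.06 and 114 CPM on CaP Zn0.8Mn, and 17.3 and 55.7 CPM on CaP Zn.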

How the data were processed

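Gene counts and FPKM of polyA RNA from 6 libraries were deposited as tables of the whole series. The authors' raw counts per gene are not normalized, and the deposited FPKM are scaled per gene length and per 1000000 reads. For aligner, counter and strand, names were not given in the sources used here. Per the submitters' processing notes the build is mm9, yet all 35 members have GENCODE M21 (GRCm38) start and end, as do 98.3% of 54409 genes, so GRCm38 coordinates are used.

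Counts were fitted with edgeR 4.0.16 (R 4.3.3): TMM scaling, filterByExpr, robust quasi-likelihood fit of 3 group means (3 residual degrees of freedom), two-sided tests, Benjamini-Hochberg over 13156 genes. Library ratios used log2 CPM with a prior count of 0.5. Members and lists were chosen with earlier results of these data known. Named genes were all members, set pathway genes, the non-members furthest apart in CaP Zn replicate 1, and in each comparison the 6 largest absolute fold changes among members averaging 5 CPM or more. Alternatives were DESeq2 1.42.0, limma 3.58.1 on voom and FPKM values (pseudocount 1 or 0.1, mean FPKM of at least 1), other scalings and filters, a replicate block and left-out libraries. The fit was tested on simulated counts with the same spread for all genes and no library set apart. CaP Zn0.8Mn replicate 1 stands apart in the real data, so that test does not give the power reached here. Each SD is over the 2 libraries of a group, and each SE comes from the edgeR fit. RefSeq promoter letters were scanned in Python 3.11.15. A gene of the pathway lists is not reported here.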

Additional observations from a re-analysis of the deposited data

How the results depend on the processing

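The comparisons are numbered as in the report: the first CaP Zn0.8Mn0.1Li with CaP Zn, the second CaP Zn0.8Mn with CaP Zn, the third CaP Zn0.8Mn0.1Li with CaP Zn0.8Mn. Leaving out 1 library in turn set the counts of calls. Over these fits, genes called ran from 0 to 7808 in the second, from 0 to 8096 in the third and from 0 to 7603 over the 3 alloys, and members called from 0 to 21, 0 to 19 and 0 to 21. The upper ends come from the fits without CaP Zn0.8Mn replicate 2. In the first both counts were 0 throughout. The member median ran from -0.354 to -0.059 in the first, from -0.571 to -0.031 in the second and from -0.131 to 0.320 in the third. Without both CaP Zn0.8Mn replicate 1 and CaP Zn replicate 1, genes called were 47, 43, 40 and 91 (the last over the 3 alloys), with 0 members, and the medians of the first 2 comparisons were -0.059 and 0.11.

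Without a filter, edgeR called 1 gene each in the second, the third and the 3 alloys, and DESeq2 called 1, 3 and 4, none of them a member. In the second, values over the left-out libraries ran from -0.031 to 1.24 for Parp14, -2.14 to 0.030 for Isg15, -2.45 to 0.18 for Bst2, -0.053 to 1.04 for Ifit2 and -1.92 to 0.067 for Zbp1, and with both replicates 1 out were 0.48 for Isg15, 0.24 for Bst2 and 0.11 for Zbp1. In the third they ran from -0.16 to 2.45 for Bst2 and -0.23 to 1.99 for Irf7, and were -0.16 and -0.23 with both out. The cause was not tested. With CaP Zn replicate 1 as the only CaP Zn library, both CaP Zn0.8Mn0.1Li libraries were lower in 27 of 30 members (37.1% of all tested genes), a choice made after the data were seen.

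With the replicate number as a block, edgeR called 0 genes in each comparison, with 21, 132, 213 and 61 genes at an unadjusted p under 0.05. The correlations of deviations between same-numbered libraries were -0.0939, -0.153 and 0.254, the last for CaP Zn0.8Mn with CaP Zn. Whether same-numbered libraries were paired was not tested. Precision is limited by 2 libraries a group.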
